A study of Homo sapiens with 9 samples.

Results

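The collagen genes were taken as the protein-coding genes of the count table whose symbol is COL, a number, A and a number, matched by Ensembl identifier without its version. The rule found 44 genes among the 60648 of the table, and 35 of them had enough counts for a test. The study asked what a circular RNA of the SMN genes does to the transcriptome of a human cell line. TC4-2A cells make, under doxycycline (Dox), a circular RNA of 4 early SMN exons (2A, 2B, 3 and 4), and TL4-2A cells make its linear counterpart with the same exons. Parental T-REx cells, which carry no insert, were the control. All 3 lines derive from HEK293, a human embryonic kidney line, all 3 received Dox for 96 h, and 3 libraries of ribosome-depleted total RNA were read from each line. The labels of all 9 libraries give T-REx as the cell line, and both induced lines are stable derivatives, so the effect of an insert and the history of a line cannot be told apart. No source used here says whether a line is 1 clone. The induced lines were each set against T-REx cells, and TC4-2A cells were set against TL4-2A cells.

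Collagens are built from chains that wind around each other into a rope-like helix, and each chain is the product of its own gene. A collagen type is often a mixture of chains, so the level of each partner bears on which assemblies a cell can make. Fibrillar collagens (types I, II, III, V, XI, XXIV and XXVII) form the fibrils of bone, cartilage, skin and tendon, and collagen IV forms the sheet-like network of basement membranes. Collagens that associate with fibrils and interrupt their helix (the FACIT class, such as types IX, XII and XIV) decorate fibril surfaces, and transmembrane collagens sit in the cell membrane. In the kidney the collagen IV network of the glomerulus is the filter barrier, and inherited defects of COL4A3, COL4A4 and COL4A5 cause Alport syndrome.

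Libraries held 18666491 to 21080564 assigned counts in TC4-2A cells, 16561680 to 18873247 in TL4-2A cells and 18626807 to 21491977 in T-REx cells. A level is given as CPM, the count scaled to a common library size with TMM, and the median log2 fold change over all genes lay between -0.0006 and 0.0037 in the 3 comparisons. A gene was called higher or lower at an adjusted p under 0.05 from edgeR's quasi-likelihood test over 19473 genes. Nothing in the labels ties the 3 libraries of a line to separate cultures, and p-values therefore measure the spread between these libraries, which may be technical. The 5 HEK293 markers (NEFL, NEFM, VIM, KRT8 and KRT18) were all tested and summed to 751 to 787 CPM in TC4-2A, 787 to 798 CPM in TL4-2A and 998 to 1034 CPM in T-REx libraries. Of 8 fibroblast markers 2 were tested, FBLN1 and PDGFRA. The 8 summed to 27.3 to 29.5 CPM in TC4-2A, 28.1 to 30.1 CPM in TL4-2A and 32.7 to 35.9 CPM in T-REx libraries. FBLN1 averaged 24.3 CPM in TC4-2A, 23.3 CPM in TL4-2A and 30.6 CPM in T-REx cells. PDGFRA averaged 3.53 CPM in TC4-2A, 5.29 CPM in TL4-2A and 3.57 CPM in T-REx cells. Against T-REx cells FBLN1 was lower in both induced lines, and PDGFRA was higher in TL4-2A cells. DCN and THY1 were at 0 in all TL4-2A libraries and THY1 at 0 in all T-REx libraries. Endothelial and blood markers summed to at most 1.1 CPM and 0.788 CPM in any library, and none was tested. The part of the lower HEK293 markers in the results on collagens was not tested. In these bulk libraries, fewer cells that make a transcript and less of it per cell cannot be told apart.

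Collagen RNA was a small share of the transcriptome and was lower in TC4-2A cells than in T-REx cells and was higher in TL4-2A cells. The 44 genes summed to 842 to 852 CPM in TC4-2A, 1071 to 1084 CPM in TL4-2A and 982 to 1025 CPM in T-REx libraries. The 3 ranges did not overlap, and the sums were not put to a test. Without COL2A1 the sums were 842 to 852 CPM in TC4-2A, 1001 to 1011 CPM in TL4-2A and 958 to 1001 CPM in T-REx libraries, so the ranges of TL4-2A and T-REx libraries then met. Between 38 and 39 collagen genes had a count in each TC4-2A library, 39 to 40 in each TL4-2A library and 40 to 41 in each T-REx library.

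Collagen IV chains held the largest share of this RNA in each line. Their share of collagen CPM was 47.2% ± 0.609 in TC4-2A, 45.4% ± 0.315 in TL4-2A and 42.9% ± 0.132 in T-REx cells (SD, n = 3 each). FACIT chains held 18.8% ± 0.214 in TC4-2A, 18.5% ± 0.266 in TL4-2A and 23.4% ± 0.0611 in T-REx cells (SD, n = 3 each). Fibrillar chains held 9.75% ± 0.152 in TC4-2A, 16.3% ± 0.153 in TL4-2A and 10.7% ± 0.115 in T-REx cells (SD, n = 3 each). Within the fibrillar class COL2A1 alone made up 0.0402% of collagen CPM in TC4-2A, 6.6% in TL4-2A and 2.36% in T-REx cells. Per kilobase of exon, COL6A1 led in TC4-2A cells with 11.2 CPM per kb, and COL14A1, a FACIT chain, led in TL4-2A cells with 15.7 CPM per kb and in T-REx cells with 15.6 CPM per kb.

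**Figure D1:**
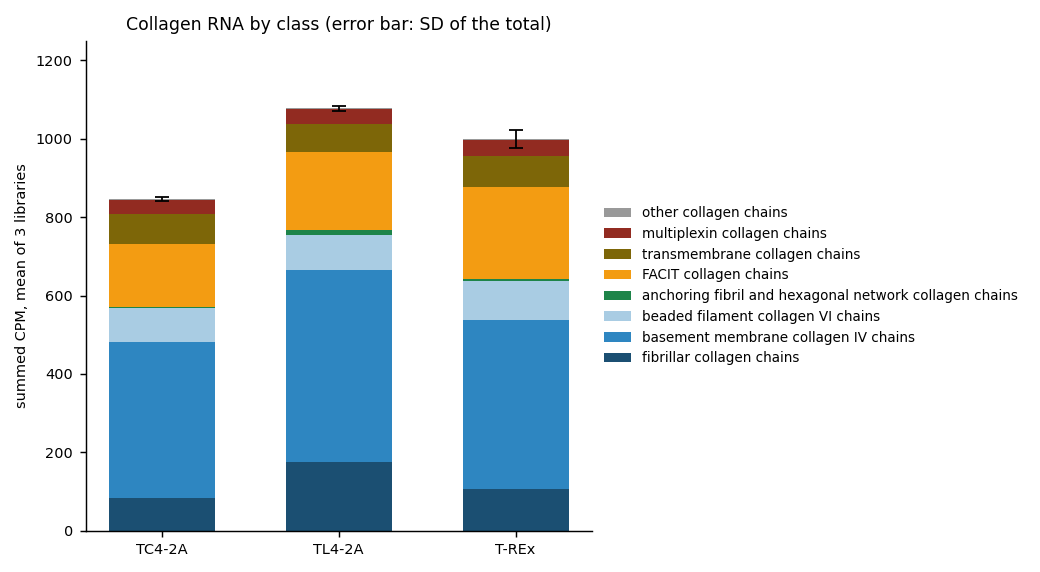
Summed CPM of the 44 collagen genes by class for the TC4-2A, TL4-2A and parental lines, as the mean of 3 libraries with the SD of the total as the error bar. Collagen IV is the largest block in every line, and the fibrillar block is larger in TL4-2A cells (176 CPM) than in TC4-2A (82.5 CPM) and T-REx cells (107 CPM).

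Set against T-REx cells, more collagen transcripts were lower than higher in TC4-2A cells, whereas in TL4-2A cells edgeR called as many higher as lower. In TC4-2A cells 3 of the 35 tested collagen genes (8.6%) were higher, where 14.2% of all tested genes were higher, and 19 (54.3%) were lower, where 14.6% of all tested genes were lower. The median log2 fold change of the 35 was -0.28. In TL4-2A cells 13 (37.1%) were higher, against 21.9% of all tested genes, and 13 (37.1%) were lower, against 22.5%, with a median of -0.01. Between TC4-2A and TL4-2A cells 4 (11.4%) were higher in TC4-2A, where 17.6% of all tested genes were, and 17 (48.6%) were lower in TC4-2A, where 17.8% were, with a median of -0.26. With DESeq2 the counts were 1 higher and 16 lower in TC4-2A and 12 higher and 8 lower in TL4-2A cells against T-REx cells, and 2 higher and 15 lower in TC4-2A than in TL4-2A cells. The count higher in TC4-2A than in T-REx cells was also 1 without T-REx replicate 2 or TC4-2A replicate 3, and the count higher in TC4-2A than in TL4-2A cells was 2 without TC4-2A replicate 2. These counts are descriptions, since 9 of the 35 (COL2A1, COL6A5, COL6A6, COL9A1, COL9A3, COL15A1, COL17A1, COL23A1 and COL28A1) were not over the count minimum, 0.53 CPM, in every library, and a gene that passed through the lines where it was high had to differ. For the same reason, p-values printed below for any of these 9 describe their values and are no independent support. When every library had to hold at least 10 counts, 26 collagen genes were left, of which 2 were higher and 15 lower in TC4-2A than in T-REx cells. In TL4-2A cells the counts were then 10 and 9. Shares of all tested genes come from the main edgeR fit, and none was taken for DESeq2, for this filter or for fits without a library.

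By pattern, COL6A6, COL11A2 and COL27A1 were higher in both induced lines, and COL1A1, COL6A1, COL9A1, COL9A2, COL12A1, COL17A1, COL18A1, COL19A1, COL21A1 and COL23A1 were lower in both. COL2A1, COL4A3, COL4A4 and COL5A1 fell in TC4-2A cells but rose in TL4-2A cells, each against T-REx cells. The same T-REx libraries serve both comparisons, so their values are given side by side and the patterns are not independent. COL15A1 and COL25A1 were called in none of the 3 comparisons, and COL15A1, a multiplexin, averaged 0.503 CPM in TC4-2A, 0.307 CPM in TL4-2A and 0.517 CPM in T-REx cells.

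**Figure D2:**
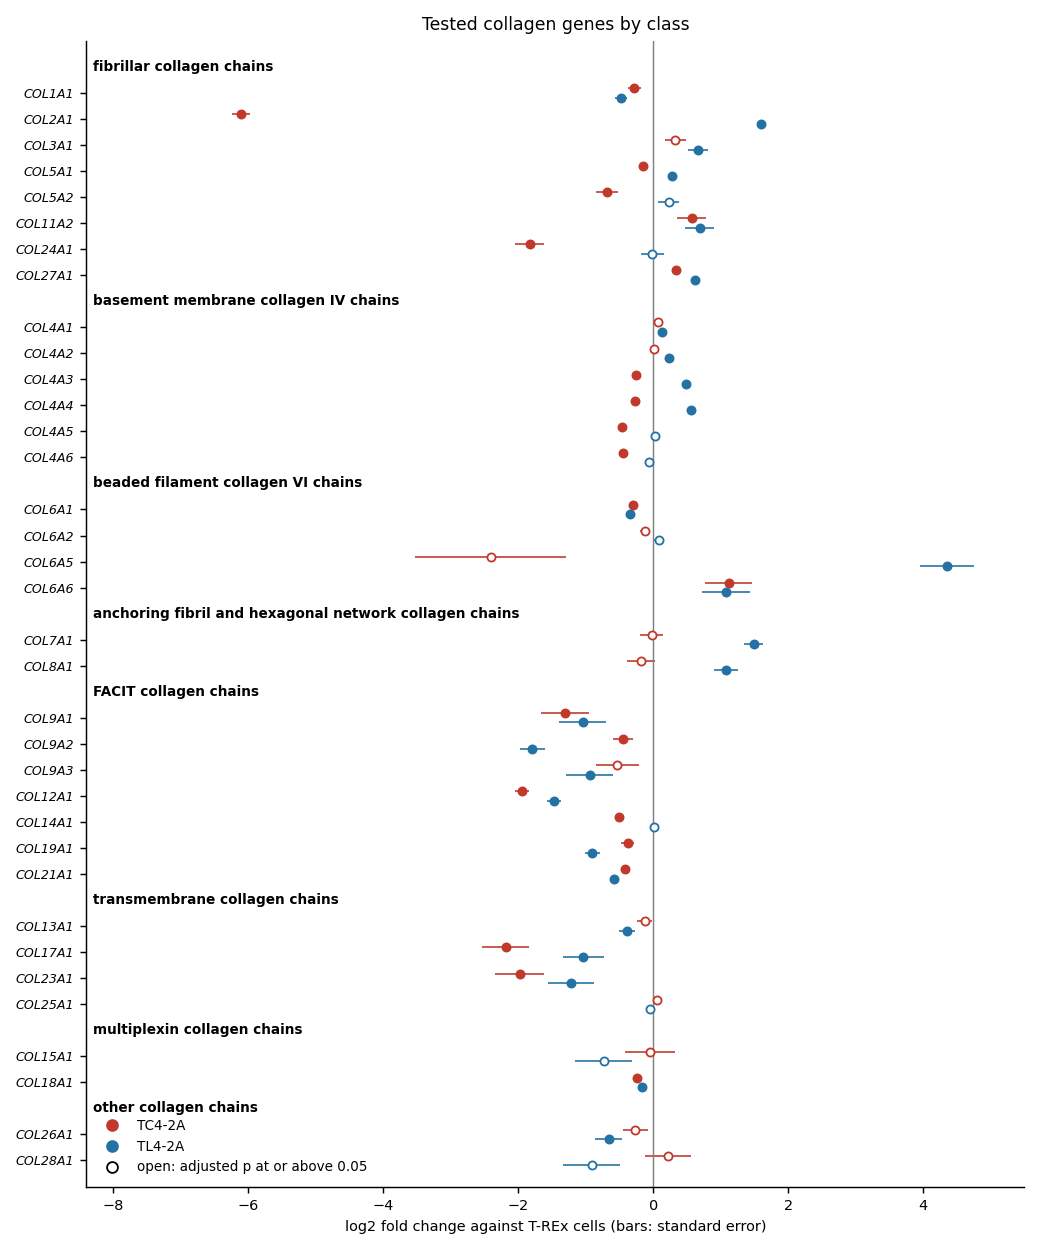
Log2 fold change against T-REx cells of the 35 tested collagen genes, grouped by class, for TC4-2A (upper point of each gene) and TL4-2A cells (lower point), with standard errors as bars and open points where the adjusted p was not under 0.05. COL2A1 lies at -6.11 for TC4-2A cells and 1.59 for TL4-2A cells, and no FACIT gene lies above 0.01 in either line.

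COL2A1, the chain of the main collagen of cartilage, showed the widest spread of any collagen gene. It lies on the minus strand of chromosome 12 from 47972967 to 48004554 (GRCh38). Its levels were 0.25, 0.285 and 0.484 CPM in TC4-2A, 73.8, 69.8 and 70.0 CPM in TL4-2A and 23.6, 23.6 and 23.5 CPM in T-REx libraries. The TC4-2A values rested on 5, 6 and 9 counts, the TL4-2A values on 1219, 1305 and 1148 counts and the T-REx values on 445, 510 and 451 counts. Every TC4-2A library lay far below the T-REx libraries, every TL4-2A library lay above them, and replicates within a line were close to each other. COL2A1 was over the count minimum in all TL4-2A and T-REx libraries and in 0 TC4-2A libraries. COL2A1 fell 69.1-fold in TC4-2A cells (log2 fold change -6.11 ± 0.13 SE, adjusted p = 1.54e-30 from edgeR) and rose 3.02-fold in TL4-2A cells (1.59 ± 0.05 SE, adjusted p = 8.81e-26), each against T-REx cells. TC4-2A cells were 208-fold lower than TL4-2A cells (adjusted p = 1.23e-37 from edgeR). From the summed counts alone, the ratio of TC4-2A to T-REx cells was 0.0141, with a 95% exact interval of 0.00856 to 0.0218 that covers counting error only.

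The other genes of a cartilage program did not follow COL2A1 in size. SOX9, with its partners SOX5 and SOX6, is the transcription factor that switches on COL2A1 in cartilage cells. SOX9 averaged 25.6 ± 0.19 CPM in TC4-2A, 26.9 ± 1.6 CPM in TL4-2A and 31.0 ± 1.2 CPM in T-REx cells (SD, n = 3 each), and it fell against T-REx cells in both TC4-2A (log2 -0.28, adjusted p = 6.28e-05 from edgeR) and TL4-2A cells (-0.21, adjusted p = 0.00157). SOX5 averaged 21.5 ± 1.4 CPM in TC4-2A, 27.4 ± 0.84 CPM in TL4-2A and 27.1 ± 1.4 CPM in T-REx cells and was lower in TC4-2A cells (-0.33, adjusted p = 2.02e-05). Thus the SOX5 level in TC4-2A cells stood below those of both other lines. The cartilage matrix genes ACAN, the proteoglycan aggrecan, and MATN3, a matrilin, were also lower in TC4-2A than in T-REx cells. ACAN averaged 0.307 ± 0.15 CPM in TC4-2A, 0.695 ± 0.13 CPM in TL4-2A and 0.659 ± 0.095 CPM in T-REx cells (log2 -1.10 in TC4-2A, adjusted p = 0.0379 from edgeR). No TC4-2A library was over the count minimum, 0.53 CPM, for ACAN, so it entered the test through the lines where it was high. Its p-value and its place in the counts below are therefore descriptions. MATN3 averaged 0.581 ± 0.13 CPM in TC4-2A, 2.06 ± 0.24 CPM in TL4-2A and 1.55 ± 0.50 CPM in T-REx cells (-1.41 in TC4-2A, adjusted p = 0.000297). Of the 10 cartilage genes listed, 5 were tested. Against T-REx cells, TC4-2A cells had 4 lower (80%, where 14.6% of all tested genes were lower) and 0 higher, with a median of -0.33. TL4-2A cells had 1 lower (20%, where 22.5% of all tested genes were lower) and 0 higher, with a median of 0.02. Between the induced lines 3 were lower in TC4-2A cells (60%, where 17.8% of all tested genes were lower) and 0 higher, with a median of -0.35.

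Among the remaining fibrillar chains, COL24A1, a minor fibrillar chain, was lower in TC4-2A cells alone of the induced lines. It had 0.649, 1.42 and 1.13 CPM in TC4-2A, 3.51, 3.32 and 4.63 CPM in TL4-2A and 3.76, 4.26 and 3.44 CPM in T-REx libraries. The TC4-2A values lay below all others, and those of TL4-2A and T-REx cells overlapped. The fall was 3.56-fold against T-REx cells (log2 -1.83 ± 0.22 SE, adjusted p = 1.41e-08 from edgeR) and 3.53-fold against TL4-2A cells (adjusted p = 1.58e-08). TL4-2A cells differed from T-REx cells by -0.01 on the log2 scale (adjusted p = 0.959).

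COL27A1, a fibrillar chain of cartilage, was higher in both induced lines. It had 31.3, 30.3 and 30.1 CPM in TC4-2A, 36.7, 37.3 and 37.3 CPM in TL4-2A and 26.2, 22 and 24.3 CPM in T-REx libraries. No groups overlapped, with TL4-2A libraries highest and T-REx libraries lowest. The log2 fold change was 0.34 ± 0.05 SE in TC4-2A (adjusted p = 3.58e-06 from edgeR) and 0.62 ± 0.05 in TL4-2A cells (adjusted p = 3.19e-12), and TC4-2A cells were lower than TL4-2A cells (-0.28, adjusted p = 3.2e-05).

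The collagen V chains differed in how far they moved. COL5A1, which nucleates collagen I fibrils with COL5A2, averaged 31.9 ± 0.106 CPM in TC4-2A, 42.9 ± 1.73 CPM in TL4-2A and 35.4 ± 0.532 CPM in T-REx cells (SD, n = 3 each). Against T-REx cells it fell in TC4-2A cells (log2 -0.15, adjusted p = 0.0187 from edgeR) but rose in TL4-2A cells (0.28, adjusted p = 9.33e-06), and it was lower in TC4-2A than in TL4-2A cells (-0.43, adjusted p = 3.06e-09). The TC4-2A call was lost with DESeq2, with no filter on low counts and without TC4-2A replicate 2 (adjusted p = 0.0593 to 0.105). COL5A2 had 2.10, 2.09 and 2.69 CPM in TC4-2A, 4.42, 4.49 and 3.96 CPM in TL4-2A and 3.39, 3.99 and 3.60 CPM in T-REx libraries. The TC4-2A libraries lay below all others, while TL4-2A and T-REx libraries overlapped. COL5A2 fell in TC4-2A cells against T-REx (-0.69 ± 0.17 SE, adjusted p = 0.00142 from edgeR) and against TL4-2A cells (-0.91, adjusted p = 2.48e-05). The ratio of COL5A1 to COL5A2 counts was 11.9 to 15.3 in TC4-2A, 9.85 to 10.3 in TL4-2A and 8.74 to 10.6 in T-REx libraries.

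COL3A1 lies beside COL5A2 on chromosome 2 and encodes the chain of collagen III, a fibrillar collagen of vessels and skin. It had 4.25, 3.80 and 4.03 CPM in TC4-2A, 4.48, 5.19 and 5.55 CPM in TL4-2A and 2.76, 2.97 and 3.91 CPM in T-REx libraries. TL4-2A libraries were above all T-REx libraries, and TC4-2A libraries overlapped with T-REx. The log2 fold change was 0.33 in TC4-2A (adjusted p = 0.115 from edgeR) and 0.66 ± 0.15 SE in TL4-2A cells (adjusted p = 0.000511). COL11A2, a collagen XI chain, had 3.70, 1.95 and 2.69 CPM in TC4-2A, 3.75, 2.51 and 2.80 CPM in TL4-2A and 1.86, 1.71 and 2.03 CPM in T-REx libraries. TL4-2A libraries were all above T-REx libraries, while TC4-2A replicate 2 fell within the T-REx range. Its calls were weak: the TC4-2A call (0.57 ± 0.21 SE, adjusted p = 0.0426 from edgeR) was lost under 6 alternatives, namely DESeq2 and leaving out any T-REx library, TC4-2A replicate 1 or TC4-2A replicate 3 (adjusted p = 0.0602 to 0.364), and the TL4-2A call (0.69, adjusted p = 0.00927) was lost without TL4-2A replicate 1 (adjusted p = 0.0964).

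COL1A1, the main chain of collagen I, was present without its usual partner. It averaged 9.18 ± 0.425 CPM in TC4-2A, 7.99 ± 0.108 CPM in TL4-2A and 11.1 ± 0.142 CPM in T-REx cells (SD, n = 3 each), whereas COL1A2 had 1 count in the 9 libraries together. COL1A1 was lower in TC4-2A (log2 -0.28, adjusted p = 0.0163 from edgeR) and TL4-2A cells (-0.48, adjusted p = 7.02e-05) than in T-REx cells. The TC4-2A call was lost with DESeq2 and without T-REx replicate 2, TC4-2A replicate 1 or TC4-2A replicate 2 (adjusted p = 0.0547 to 0.0969). In the fibrillar class as a whole, 8 of 11 chains were tested, and against T-REx cells TC4-2A cells had 2 higher (25.0%, against 14.2% of all tested genes) and 5 lower (62.5%, against 14.6%), with a median of -0.21. TL4-2A cells had 5 higher (62.5%, against 21.9% of all tested genes) and 1 lower (12.5%, against 22.5%), with a median of 0.45. COL2A1, among these chains, was over the count minimum in 0 TC4-2A libraries, so the shares of the class are descriptions.

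**Figure D3:**
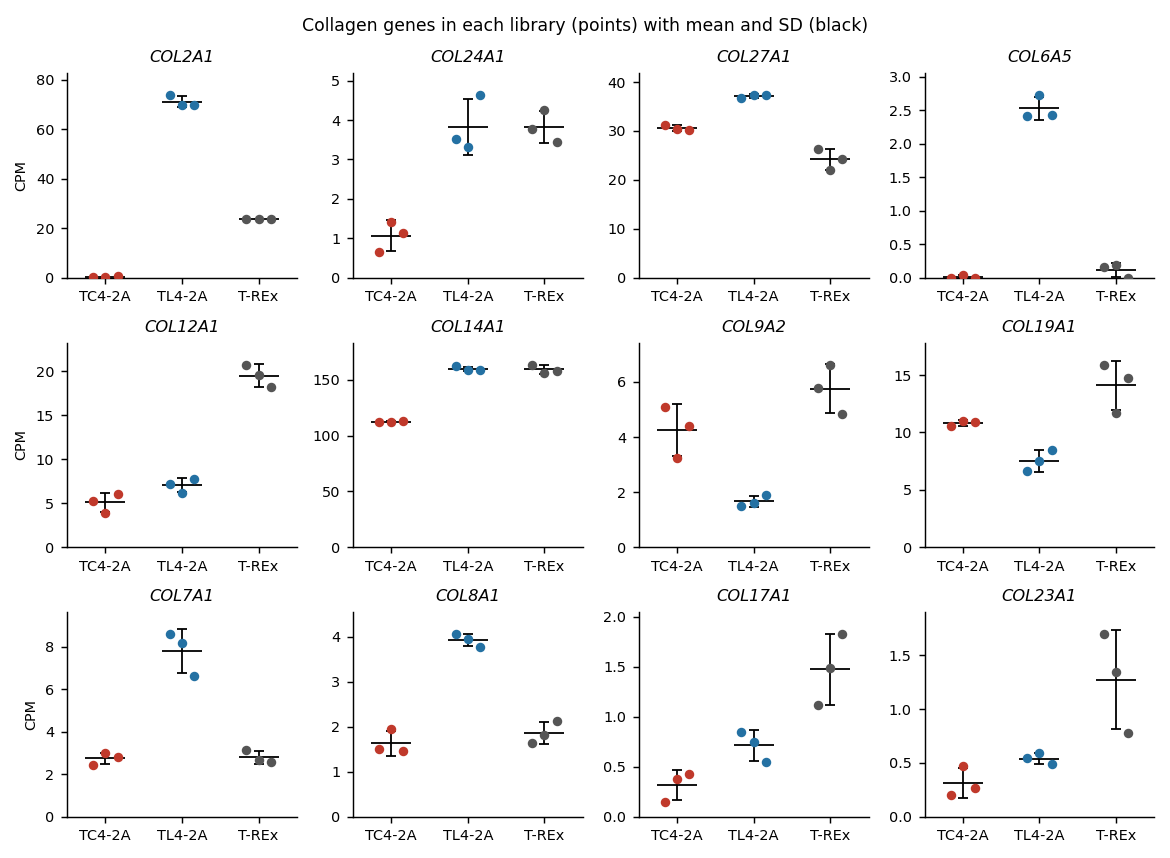
CPM of 12 collagen genes in the TC4-2A, TL4-2A and parental T-REx lines, each point a library, with mean and SD (n = 3) in black and axes from 0. COL2A1, COL6A5, COL7A1 and COL8A1 are highest in TL4-2A cells, COL24A1 and COL14A1 are lowest in TC4-2A cells, and COL12A1, COL17A1 and COL23A1 are highest in T-REx cells.

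The 6 collagen IV genes are arranged in head-to-head pairs that share the stretch between their start sites and are read in opposite directions. Their chains form 3 known networks: COL4A1 with COL4A2 in nearly all basement membranes, COL4A3 with COL4A4 and COL4A5 in the glomerulus, and COL4A5 with COL4A6 in others such as smooth muscle. The RefSeq start sites lie 127 bases apart for COL4A1 and COL4A2, 419 bases apart for COL4A4 and COL4A3 and 380 bases apart for COL4A5 and the nearer start of COL4A6. The stretches shown lie between the starts, within 250 bases of both and outside annotated exons. By this rule the COL4A4 and COL4A3 pair left 22 bases, which are not printed. The stretches of the COL4A1 and COL4A6 pairs, of 100 and 121 bases, are given because of their length. Both are plus strand sequence from RefSeq on GRCh38.p14, at chr13:110307158-110307257 and chrX:108439588-108439708, with capitals for matches of CCAAT and GGGCGG on either strand; none of the matches overlap.
COL4A1 and COL4A2: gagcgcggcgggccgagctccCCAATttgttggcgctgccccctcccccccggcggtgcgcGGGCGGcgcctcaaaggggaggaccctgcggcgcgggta
COL4A6 and COL4A5: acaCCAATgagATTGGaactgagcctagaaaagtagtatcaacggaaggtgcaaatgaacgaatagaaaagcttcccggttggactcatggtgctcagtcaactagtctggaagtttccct

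The COL4A1 stretch of 100 bases held 78.0% G and C, 14 CG dinucleotides, 1 CCAAT match and 1 GGGCGG match. The COL4A6 stretch of 121 bases held 44.6% G and C, 3 CG dinucleotides and 2 CCAAT matches, 1 on each strand. A match is only a match of letters. In windows of 300 bases from 250 before to 50 after each RefSeq start, CCAAT occurred in 34.6% of 35116 windows of all genes and in 31.8% of the 44 windows of collagen genes, and GGGCGG in 45.0% of windows of all genes and 54.5% of collagen windows. The sequence TATAAA occurred in 11.5% of windows of all genes and in 18.2% of collagen windows. The table held windows for 32 of the 44 collagen genes.

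COL4A1 and COL4A2, on chromosome 13, differed by at most 0.23 on the log2 scale between the 3 lines. COL4A1 had 130, 132 and 139.7 CPM in TC4-2A, 141 and 139 and 135 CPM in TL4-2A and 128, 124 and 129 CPM in T-REx libraries. COL4A2 had 149.9, 147 and 141 CPM in TC4-2A, 169, 172 and 171 CPM in TL4-2A and 149, 146 and 142 CPM in T-REx libraries. For both genes the TL4-2A libraries were above all T-REx libraries, and for COL4A2 the TC4-2A and T-REx libraries overlapped. In TL4-2A cells COL4A1 rose by 0.12 ± 0.04 SE (adjusted p = 0.00401 from edgeR) and COL4A2 by 0.23 ± 0.03 (adjusted p = 2.24e-07) on the log2 scale. In TC4-2A cells neither passed the test, with 0.08 for COL4A1 (adjusted p = 0.103) and 0.01 for COL4A2 (adjusted p = 0.915). The ratio of COL4A1 to COL4A2 counts was 0.864 to 0.988 in TC4-2A, 0.788 to 0.836 in TL4-2A and 0.847 to 0.907 in T-REx libraries.

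COL4A3 and COL4A4, on chromosome 2, moved in opposite directions in the induced lines, down in TC4-2A and up in TL4-2A cells. COL4A3 had 15.1, 16.4 and 17.2 CPM in TC4-2A, 27.6, 24.9 and 28.9 CPM in TL4-2A and 20.4, 17.6 and 20.1 CPM in T-REx libraries. COL4A4 had 28.0, 25.7 and 29.1 CPM in TC4-2A, 47.8, 50.1 and 49.9 CPM in TL4-2A and 32.1, 33.8 and 34.2 CPM in T-REx libraries. The 3 lines did not overlap for either gene. COL4A3 had a log2 fold change of -0.25 ± 0.07 SE in TC4-2A (adjusted p = 0.00733 from edgeR) and 0.49 ± 0.07 in TL4-2A cells (adjusted p = 2.25e-07). COL4A4 had -0.28 ± 0.05 SE in TC4-2A (adjusted p = 8.89e-05 from edgeR) and 0.56 ± 0.05 in TL4-2A cells (adjusted p = 7.72e-12). Between TC4-2A and TL4-2A cells the log2 difference was -0.74 for COL4A3 (adjusted p = 4.17e-11) and -0.84 for COL4A4 (adjusted p = 3.5e-16). The COL4A3 call in TC4-2A cells was lost without TC4-2A replicate 1 (adjusted p = 0.0615), and 838 exon bases of COL4A3 overlap MFF-DT, a noncoding gene of the opposite strand with 510 counts in all. The ratio of COL4A3 to COL4A4 counts was 0.541 to 0.638 in TC4-2A, 0.496 to 0.579 in TL4-2A and 0.520 to 0.635 in T-REx libraries.

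COL4A5 and COL4A6, on the X chromosome, were lower in TC4-2A cells. COL4A5 had 41.7, 46.2 and 43.6 CPM in TC4-2A, 62.0, 64.2 and 59.9 CPM in TL4-2A and 64.0, 58.4 and 59.7 CPM in T-REx libraries. COL4A6 had 32.1, 32.7 and 30.0 CPM in TC4-2A, 42.0, 41.8 and 39.9 CPM in TL4-2A and 45.0, 42.7 and 41.3 CPM in T-REx libraries. For both genes every TC4-2A library lay below all libraries of the other lines, which overlapped with each other. Against T-REx cells, COL4A6 fell by 0.44 on the log2 scale in TC4-2A cells (SE 0.05, adjusted p = 6.14e-09 from edgeR) and COL4A5 by 0.47 (SE 0.05). Against TL4-2A cells the difference was -0.38 for COL4A6 (adjusted p = 1.18e-07) and -0.50 for COL4A5 (adjusted p = 1.88e-10). TL4-2A cells differed from T-REx cells by 0.03 for COL4A5 (adjusted p = 0.621 from edgeR) and by -0.06 for COL4A6 (adjusted p = 0.351). The ratio of COL4A5 to COL4A6 counts was 1.30 to 1.46 in TC4-2A, 1.48 to 1.54 in TL4-2A and 1.37 to 1.45 in T-REx libraries. Over the 6 collagen IV genes, TC4-2A cells had 0 higher and 4 lower (66.7%, where 14.6% of all tested genes were lower), with a median of -0.26. TL4-2A cells had 4 higher (66.7%, where 21.9% of all tested genes were higher) and 0 lower, with a median of 0.18, each against T-REx cells. The lower genes were the pairs COL4A3 with COL4A4 and COL4A5 with COL4A6. The higher ones were COL4A1 with COL4A2 and COL4A3 with COL4A4. Genes of a pair lie side by side, so these shares do not count separate loci.

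**Figure D4:**
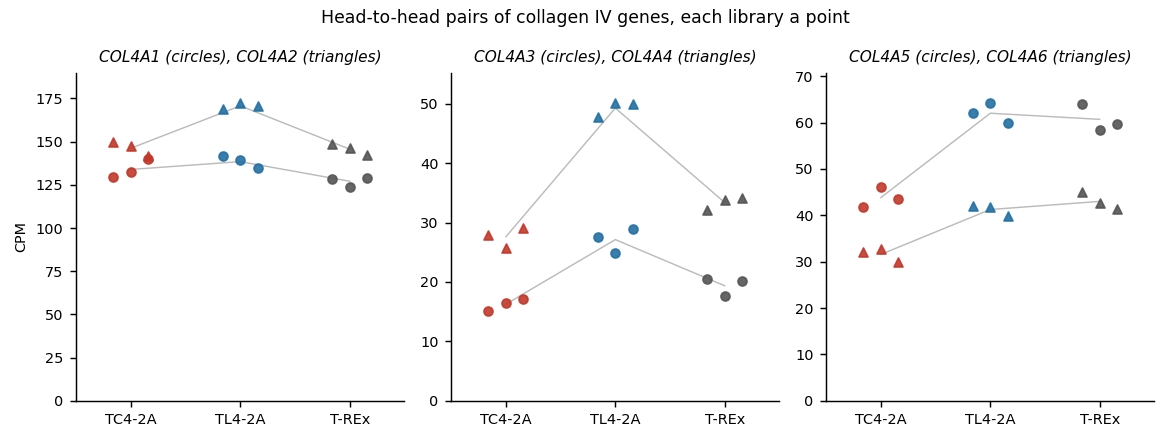
CPM of the collagen IV pairs in TC4-2A, TL4-2A and T-REx libraries, with circles for the first and triangles for the second gene of a pair and grey lines through the means of 3 libraries. COL4A3 and COL4A4 are highest in TL4-2A and lowest in TC4-2A cells, and COL4A5 and COL4A6 are lowest in TC4-2A cells.

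Collagen VI, a beaded filament near cell surfaces, pairs COL6A1 and COL6A2 with COL6A3 or one of its relatives COL6A5 and COL6A6. COL6A1 averaged 62.1 ± 3.88 CPM in TC4-2A, 60.6 ± 0.345 CPM in TL4-2A and 76.7 ± 2.67 CPM in T-REx cells (SD, n = 3 each) and was lower in TC4-2A (log2 -0.31, adjusted p = 2.49e-06 from edgeR) and TL4-2A cells (-0.34, adjusted p = 2.3e-07) than in T-REx cells. COL6A2 did not pass the test against T-REx cells, with log2 fold changes of -0.13 for TC4-2A cells and 0.08 for TL4-2A cells. Against TL4-2A cells TC4-2A cells were lower (-0.21, edgeR, adjusted p = 0.00777), a call lost with DESeq2 and without TC4-2A replicate 2 (adjusted p = 0.0626 to 0.102).

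These last chains were all scarce, at 2.73 CPM or less in any library, and COL6A5 was found mainly in TL4-2A cells. COL6A5 had 0, 1 and 0 counts in TC4-2A, 40, 51 and 40 counts in TL4-2A and 3, 4 and 0 counts in T-REx libraries. It passed the filter on low counts through TL4-2A cells alone, whose libraries were all above those of the other lines. Because the gene entered the test through the line where it was high, no test is given for it. From the summed counts, the ratio of TL4-2A to T-REx cells was 21.3 with a 95% exact interval of 10 to 54 for counting error. From the summed counts, 1 for TC4-2A cells and 131 for TL4-2A cells, the ratio of TC4-2A to TL4-2A cells was 0.00663 with a 95% exact interval of 0.000167 to 0.0376 for counting error. Against T-REx cells the ratio of TC4-2A cells was 0.141 with an interval of 0.00313 to 1.1, so a difference was not detectable at this depth. COL6A6, its neighbour on chromosome 3, had 0.699, 0.997 and 1.29 CPM in TC4-2A, 0.969, 1.18 and 0.731 CPM in TL4-2A and 0.477, 0.417 and 0.470 CPM in T-REx libraries. Both induced lines lay above T-REx cells and overlapped with each other. COL6A6 was over the count minimum in all TC4-2A and TL4-2A libraries and in 0 T-REx libraries, and thus passed the filter through the lines where it was high. It was 2.17-fold higher in TC4-2A (adjusted p = 0.012 from edgeR) and 2.12-fold higher in TL4-2A cells (adjusted p = 0.0122). The TC4-2A call was lost with DESeq2 and without T-REx replicate 2 or TC4-2A replicate 3 (adjusted p = 0.0523 to 0.0914), and the TL4-2A call with DESeq2 and without TL4-2A replicate 2 (adjusted p = 0.0672 to 0.0849). COL6A3 had 0 counts in all TC4-2A libraries, 16, 7 and 6 in TL4-2A and 1, 6 and 7 in T-REx libraries. It had too few counts for a test. With 3 counts put in place of the 0 of TC4-2A cells, the summed 29 counts of TL4-2A cells were 11.1-fold higher. The 14 counts of T-REx cells were then 4.72-fold higher. Both folds take the 29 and 14 counts as exact, so they are not lower limits.

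COL7A1, the chain of the anchoring fibrils that tie epithelia to the dermis, and COL8A1, a short chain of vessel and eye basement membranes, were higher in TL4-2A cells. COL7A1 had 2.45, 2.99 and 2.79 CPM in TC4-2A, 8.60, 8.18 and 6.64 CPM in TL4-2A and 3.13, 2.69 and 2.56 CPM in T-REx libraries. COL8A1 had 1.5, 1.95 and 1.45 CPM in TC4-2A, 4.06, 3.96 and 3.78 CPM in TL4-2A and 1.64, 1.81 and 2.14 CPM in T-REx libraries. For each gene the TL4-2A libraries stood above all the others, and TC4-2A and T-REx libraries overlapped. In TL4-2A cells COL7A1 was 2.80-fold higher than in T-REx cells (log2 1.49 ± 0.14 SE, adjusted p = 5.98e-11 from edgeR) and COL8A1 was 2.11-fold higher (1.08 ± 0.18 SE, adjusted p = 6.26e-06). TC4-2A cells had 2.84-fold less COL7A1 (adjusted p = 4.55e-11 from edgeR) and 2.39-fold less COL8A1 (adjusted p = 7.06e-07) than TL4-2A cells. Against T-REx cells, TC4-2A cells had log2 fold changes of -0.02 for COL7A1 (adjusted p = 0.95) and -0.18 for COL8A1 (adjusted p = 0.568).

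Most of the tested FACIT chains were lower in both induced lines. Of 10 chains 7 were tested, and against T-REx cells TC4-2A cells had 6 lower (85.7%, where 14.6% of all tested genes were lower) and 0 higher, with a median of -0.50. TL4-2A cells had 6 lower (85.7%, where 22.5% of all tested genes were lower) and 0 higher, with a median of -0.94. Among these chains COL9A1 and COL9A3 were over the count minimum in all libraries of T-REx cells alone, where they were highest. The shares are therefore descriptions. With DESeq2 the calls of COL9A2 in TC4-2A cells and of COL9A1 and COL9A3 in TL4-2A cells were lost. COL12A1, which coats collagen I fibrils in tendon and ligament, lies on the minus strand of chromosome 6 from 75084326 to 75206267. It had 5.30, 3.94 and 6.07 CPM in TC4-2A, 7.20, 6.15 and 7.74 CPM in TL4-2A and 20.7, 19.6 and 18.2 CPM in T-REx libraries. All libraries of both induced lines lay below those of T-REx cells. COL12A1 fell 3.84-fold in TC4-2A (log2 -1.94 ± 0.11 SE, adjusted p = 4.4e-17 from edgeR) and 2.78-fold in TL4-2A cells (-1.48 ± 0.10 SE, adjusted p = 2.08e-14). TC4-2A cells were also lower than TL4-2A cells (-0.47, adjusted p = 0.00448), a call lost without TC4-2A replicate 2 (adjusted p = 0.0799).

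COL14A1, another coat of fibrils and the FACIT gene with the most RNA, was lower in TC4-2A cells and near its control level in TL4-2A cells. It had 112, 113 and 113 CPM in TC4-2A, 162, 159 and 159 CPM in TL4-2A and 163, 156 and 158 CPM in T-REx libraries. The TC4-2A libraries lay well below the rest, and the other lines overlapped. The log2 fold change was -0.50 ± 0.03 SE in TC4-2A (adjusted p = 2.64e-15 from edgeR) and 0.01 in TL4-2A cells (adjusted p = 0.9), and TC4-2A cells were lower than TL4-2A cells (-0.51, adjusted p = 1.19e-15).

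The collagen IX chains, which form 1 mixed molecule on cartilage fibrils, were each lower in at least 1 induced line. COL9A2 had 5.10, 3.23 and 4.41 CPM in TC4-2A, 1.51, 1.60 and 1.89 CPM in TL4-2A and 5.78, 6.63 and 4.85 CPM in T-REx libraries. The TL4-2A libraries lay below all others, and TC4-2A replicate 1 fell within the T-REx range. COL9A2 was 3.46-fold lower in TL4-2A than in T-REx cells (log2 -1.79 ± 0.19 SE, adjusted p = 4.13e-10 from edgeR) and 2.53-fold higher in TC4-2A than in TL4-2A cells (adjusted p = 7.76e-07). The smaller fall in TC4-2A cells (-0.45, adjusted p = 0.0193) was lost with DESeq2 and without T-REx replicate 2 or TC4-2A replicate 2 (adjusted p = 0.115 to 0.186). COL9A1 had 0.5, 0.285 and 0.430 CPM in TC4-2A, 0.605, 0.428 and 0.427 CPM in TL4-2A and 0.742, 0.973 and 1.30 CPM in T-REx libraries. Both induced lines lay below T-REx cells and overlapped with each other. COL9A1 was over the count minimum in 0 TC4-2A, 1 TL4-2A and 3 T-REx libraries, so it entered the test through the line where it was high. Its log2 fold change was -1.31 ± 0.35 SE in TC4-2A (adjusted p = 0.0038 from edgeR) and -1.04 ± 0.35 in TL4-2A cells (adjusted p = 0.0141). The TL4-2A call was lost with DESeq2 and without T-REx replicate 3, TL4-2A replicate 2 or TL4-2A replicate 3 (adjusted p = 0.0539 to 0.101). COL9A3 had 0.799, 0.380 and 0.860 CPM in TC4-2A, 0.424, 0.535 and 0.549 CPM in TL4-2A and 0.954, 0.927 and 1.04 CPM in T-REx libraries. TC4-2A and TL4-2A libraries overlapped, and all lay below the T-REx libraries, the line in which alone all 3 were over the count minimum. The change was -0.53 in TC4-2A (adjusted p = 0.222 from edgeR) and -0.94 in TL4-2A cells (adjusted p = 0.0267), and the TL4-2A call was lost under 5 alternatives, DESeq2 and leaving out T-REx replicate 2, T-REx replicate 3, TL4-2A replicate 1 or TL4-2A replicate 2 (adjusted p = 0.0504 to 0.127). COL9A3 also shares 155 exon bases with TCFL5 of the opposite strand, which has 7036 counts, against 124 for COL9A3.

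COL19A1 and COL21A1, FACIT chains on chromosome 6, were lower in both lines. COL19A1 had 10.5, 11 and 10.9 CPM in TC4-2A, 6.6, 7.49 and 8.47 CPM in TL4-2A and 15.9, 11.7 and 14.7 CPM in T-REx libraries. COL21A1 had 23.9, 25.2 and 24.6 CPM in TC4-2A, 21.6, 21.3 and 22.7 CPM in TL4-2A and 32.1, 32.9 and 33.1 CPM in T-REx libraries. Groups did not overlap for either gene, and TL4-2A libraries were lowest for both. COL19A1 changed by -0.38 in TC4-2A (adjusted p = 0.0028 from edgeR) and -0.90 in TL4-2A cells (adjusted p = 7.71e-09). COL19A1 shares 85 exon bases with LMBRD1 of the opposite strand, which has 5854 counts against 1869 for COL19A1. COL21A1 changed by -0.41 in TC4-2A (adjusted p = 2.68e-08 from edgeR) and -0.58 in TL4-2A cells (adjusted p = 1.28e-11). TC4-2A cells were higher than TL4-2A cells for COL19A1 (0.53, adjusted p = 0.000224) and for COL21A1 (0.17, adjusted p = 0.0143), the last call being lost with DESeq2 and without TC4-2A replicate 2 or TL4-2A replicate 2 (adjusted p = 0.0642 to 0.116).

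Of the 4 transmembrane chains, TC4-2A cells had 2 lower (50%, where 14.6% of all tested genes were lower) and TL4-2A cells 3 lower (75%, where 22.5% were), each against T-REx cells, and none was higher. The 2 lower in TC4-2A cells, COL17A1 and COL23A1, entered the test through the lines where they were high. Both are also among the 3 of TL4-2A cells, so these shares are descriptions. COL17A1, which anchors skin cells to the basement membrane in hemidesmosomes, had 0.150, 0.380 and 0.430 CPM in TC4-2A, 0.848, 0.749 and 0.549 CPM in TL4-2A and 1.11, 1.48 and 1.83 CPM in T-REx libraries. The 3 lines did not overlap, with TC4-2A lowest, where 0 libraries were over the count minimum, and T-REx highest. It changed by -2.19 ± 0.35 SE in TC4-2A (adjusted p = 5.53e-06 from edgeR) and -1.04 ± 0.31 in TL4-2A cells (adjusted p = 0.00564), the TL4-2A call being lost with DESeq2 (adjusted p = 0.0524). TC4-2A cells were lower than TL4-2A cells (-1.15, adjusted p = 0.0291), a call lost with DESeq2 and without TC4-2A replicate 1, TL4-2A replicate 1 or TL4-2A replicate 2 (adjusted p = 0.0769 to 0.165). COL23A1 had 0.2, 0.475 and 0.269 CPM in TC4-2A, 0.545, 0.588 and 0.488 CPM in TL4-2A and 1.70, 1.34 and 0.783 CPM in T-REx libraries. The T-REx values spread widely but stayed above both induced lines. COL23A1 was over the count minimum in 0 TC4-2A, 2 TL4-2A and 3 T-REx libraries, so it entered the test through the line where it was high. It fell 3.95-fold in TC4-2A (-1.98 ± 0.37 SE, adjusted p = 5.61e-05 from edgeR) and 2.34-fold in TL4-2A cells (-1.22 ± 0.34 SE, adjusted p = 0.00345). COL13A1, found at the neuromuscular junction, fell in TL4-2A cells against T-REx cells (log2 -0.39, adjusted p = 0.00766 from edgeR), and its value in TC4-2A cells was -0.12 (adjusted p = 0.453). COL25A1, a chain first found in amyloid plaques, stayed at 70.0 ± 1.37 CPM in TC4-2A, 65.7 ± 2.54 CPM in TL4-2A and 67.6 ± 2.68 CPM in T-REx cells (SD, n = 3 each), and no comparison passed the test.

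COL18A1, the source of the fragment endostatin, was the called chain of the multiplexin class. It averaged 35.0 ± 2.30 CPM in TC4-2A, 36.8 ± 2.21 CPM in TL4-2A and 41.3 ± 2.17 CPM in T-REx cells (SD, n = 3 each). It changed by -0.24 in TC4-2A (adjusted p = 0.000833 from edgeR) and -0.16 in TL4-2A cells (adjusted p = 0.0139), and the TL4-2A call was lost with DESeq2 and without T-REx replicate 1 or TL4-2A replicate 1 (adjusted p = 0.0637 to 0.1). It shares 1563 exon bases with SLC19A1 of the opposite strand, which has 14937 counts against 6446 for COL18A1, and whether counting used the strand is not given in the sources used here. COL26A1 had 1.90, 2.28 and 2.10 CPM in TC4-2A, 1.45, 1.60 and 1.71 CPM in TL4-2A and 2.55, 2.69 and 2.30 CPM in T-REx libraries. No lines overlapped, and TL4-2A libraries were lowest. It was lower in TL4-2A than in T-REx cells (log2 -0.66, adjusted p = 0.00772 from edgeR), a call lost with DESeq2 (adjusted p = 0.0548). COL28A1 had 0.550, 0.760 and 0.752 CPM in TC4-2A, 0.363, 0.374 and 0.183 CPM in TL4-2A and 0.689, 0.463 and 0.626 CPM in T-REx libraries. TC4-2A libraries were above TL4-2A libraries and overlapped with T-REx. COL28A1 was over the count minimum in 3 TC4-2A, 0 TL4-2A and 2 T-REx libraries, so it entered the test through the lines where it was high. It was 2.19-fold higher in TC4-2A than in TL4-2A cells (edgeR, adjusted p = 0.028), a call lost under 5 alternatives, DESeq2, no filter on low counts and leaving out TC4-2A replicate 2, TC4-2A replicate 3 or TL4-2A replicate 3 (adjusted p = 0.0526 to 0.142).

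The 9 chains with too few counts for a test were COL1A2, COL5A3, COL6A3, COL8A2, COL10A1, COL11A1, COL16A1, COL20A1 and COL22A1. COL11A1 and COL22A1 had 0 counts in all 9 libraries, which allows up to 3 counts over the libraries of a line, so COL11A2 was detected without COL11A1, its partner in cartilage collagen XI. COL10A1, a chain of the growth plate, had 0 counts in TC4-2A and TL4-2A cells and 0, 1 and 1 in T-REx libraries. COL5A3 averaged 0.304 CPM in TC4-2A, 0.403 CPM in TL4-2A and 0.477 CPM in T-REx cells. COL16A1 averaged 0.362 CPM in TC4-2A, 0.137 CPM in TL4-2A and 0.371 CPM in T-REx cells, and COL20A1 0.479 CPM in TC4-2A, 0.444 CPM in TL4-2A and 0.267 CPM in T-REx cells. COL8A2 did not exceed 0.121 CPM in any library.

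Several collagen genes sat among neighbours that moved the same way, and others did not. For each tested collagen gene the 10 nearest tested genes on each side were taken, and their median log2 fold change set beside that of the collagen gene. Of all tested genes 21.9% were higher and 22.5% lower in TL4-2A than in T-REx cells. Around COL4A3 the 20 neighbours had a median of -0.02 for TC4-2A cells and 0.43 for TL4-2A cells, with 16 called higher and 0 lower in TL4-2A cells, beside 0.49 for COL4A3. Around COL4A4 the medians were -0.02 for TC4-2A cells and 0.47 for TL4-2A cells, with 17 higher and 0 lower in TL4-2A, beside 0.56 for COL4A4. COL3A1 and COL5A2, also on chromosome 2, had neighbour medians of 0.40 and 0.42 in TL4-2A cells, with 15 of 20 higher and 0 lower for each, beside 0.66 and 0.23 for the genes themselves. In TC4-2A cells the neighbours of COL5A2 had a median of -0.05, beside -0.69 for COL5A2. COL4A3 and COL4A4 have largely the same neighbours, as do COL3A1 and COL5A2, and each gene of such a pair counts among the neighbours of the other. The surroundings within a pair are therefore not separate. The part of these neighbours in the TL4-2A values of the 4 chromosome 2 chains was not tested. On chromosome 13 the neighbours of COL4A1 and COL4A2, again largely the same genes, had medians of 0.20 and 0.19 in TL4-2A cells. Of 20 neighbours, 10 and 11 were higher and 2 were lower for each, beside 0.12 and 0.23 for the genes themselves. Their part in these values was not tested either.

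On the X chromosome the neighbours of COL4A5 had medians of -0.21 (TC4-2A) and -0.09 (TL4-2A), beside -0.47 for COL4A5 in TC4-2A cells. In TC4-2A cells 10 of 20 were lower and 5 higher, where 14.6% and 14.2% of all tested genes were. The neighbours of COL4A6, largely the same genes, had medians of -0.24 (TC4-2A) and -0.11 (TL4-2A), beside -0.44 for COL4A6 in TC4-2A cells. On chromosome 8 the neighbours of COL14A1 had medians of -0.19 (TC4-2A) and -0.09 (TL4-2A), beside -0.50 for COL14A1 in TC4-2A cells. There 7 of 20 were lower and 1 higher in TC4-2A cells. Around COL2A1 the medians were -0.00 for TC4-2A cells and -0.03 for TL4-2A cells, beside -6.11 for COL2A1 in TC4-2A and 1.59 in TL4-2A. Around COL12A1 they were -0.02 for TC4-2A cells and -0.01 for TL4-2A cells, beside -1.94 for COL12A1 in TC4-2A and -1.48 in TL4-2A. Around COL24A1 they were -0.12 in TC4-2A cells, beside -1.83, and around COL7A1 0.02 in TL4-2A cells, beside 1.49. Of the 20 neighbours of COL24A1, 9 were lower and 0 higher in TC4-2A cells, so its surroundings also leaned down there. COL2A1, COL12A1, COL24A1 in TC4-2A cells and COL7A1 in TL4-2A cells thus differed from T-REx cells by far more than the middle gene of their surroundings. Around COL26A1, 17 of 20 neighbours rose and 0 fell in TC4-2A cells (median 0.36), where 14.2% of all tested genes were higher. COL26A1 itself did not pass the test there (log2 -0.26, adjusted p = 0.313 from edgeR), and its difference from the neighbours was not tested.

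**Figure D5:**
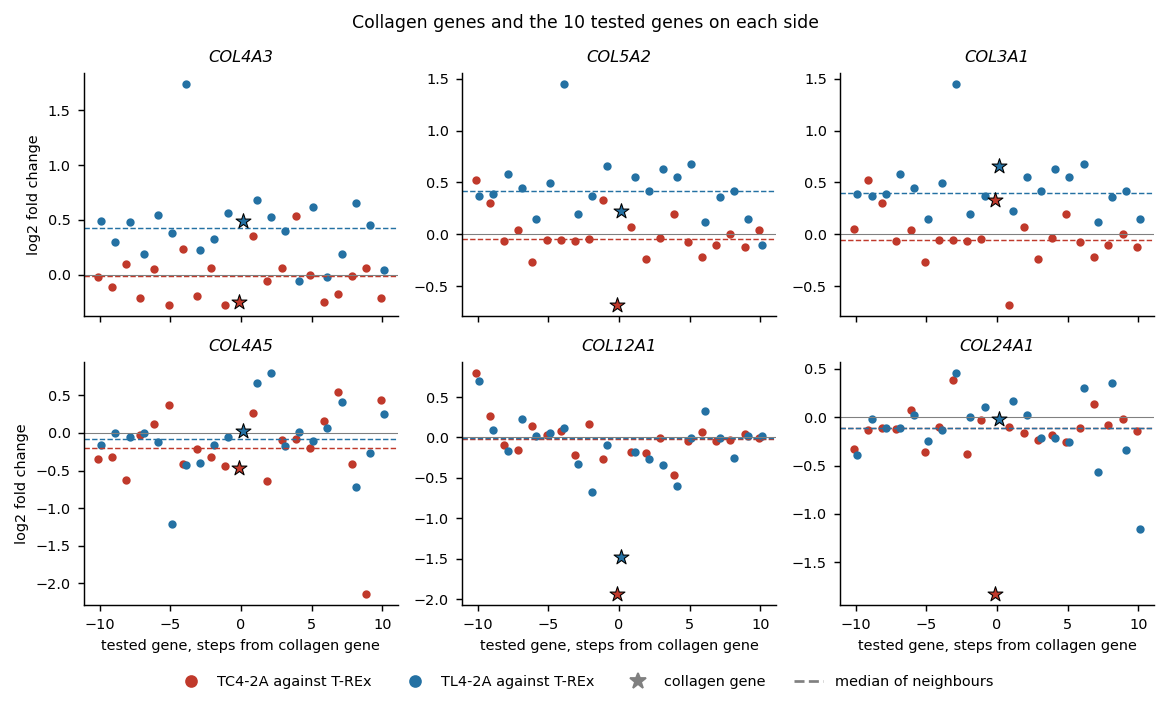
Log2 fold change against T-REx cells of 6 collagen genes (stars) and of the 10 tested genes on each side (points, by steps along the chromosome), for TC4-2A and TL4-2A cells, with dashed lines at the neighbours' medians. Around COL4A3, COL5A2 and COL3A1 the TL4-2A points sit near 0.4, while COL12A1 in both lines and COL24A1 in TC4-2A cells lie far below their neighbours. The COL5A2 and COL3A1 panels show largely the same neighbours.

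The lists of genes that make, export and read collagen each held both higher and lower members in either induced line. Of 14 enzymes that modify proline and lysine in collagen, TC4-2A cells had 1 higher (7.1%, against 14.2% of all tested genes) and 6 lower (42.9%, against 14.6%), with a median of -0.04. TL4-2A cells had 2 higher (14.3%, against 21.9% of all tested genes) and 8 lower (57.1%, against 22.5%), with a median of -0.19. PLOD1, a lysyl hydroxylase, averaged 70.0 ± 1.4 CPM in TC4-2A, 48.5 ± 1.7 CPM in TL4-2A and 77.4 ± 0.94 CPM in T-REx cells (SD, n = 3 each), which is log2 -0.15 in TC4-2A (adjusted p = 0.00968 from edgeR) and -0.68 in TL4-2A cells (adjusted p = 5.92e-15). PLOD3, which also adds sugars to lysine, was higher in TC4-2A (0.27, adjusted p = 7.62e-05 from edgeR) and lower in TL4-2A cells (-0.25, adjusted p = 0.000282). Of the 14 enzymes PLOD3 alone was called in opposite directions in the induced lines. P4HB, the beta subunit of prolyl 4-hydroxylase, rose by 0.32 in TL4-2A cells (edgeR, adjusted p = 8.28e-12), and P3H3, of the prolyl 3-hydroxylase family, by 0.60 (adjusted p = 9.49e-11), and neither was called in TC4-2A cells.

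Of 15 genes for folding and export, TC4-2A cells had 2 higher and 2 lower than T-REx cells (13.3% each, near the 14.2% and 14.6% of all tested genes), with a median of 0.05. TL4-2A cells had 5 higher (33.3%, against 21.9% of all tested genes) and 6 lower (40.0%, against 22.5%), with a median of 0.04. CREB3L1, a transcription factor of collagen production in bone, averaged 0.298 ± 0.12 CPM in TC4-2A, 0.056 ± 0.054 CPM in TL4-2A and 0.887 ± 0.13 CPM in T-REx cells (SD, n = 3 each), and was lower in TC4-2A than in T-REx cells (log2 -1.54, adjusted p = 0.00206 from edgeR). It was also called lower in TL4-2A cells (adjusted p = 1.1e-06), whose libraries had 0, 0.107 and 0.061 CPM, too few counts for a fold. CREB3L1 was over the count minimum, 0.53 CPM, in T-REx libraries alone, so it entered the test through the line where it was high. The p-values of CREB3L1 and its place in the counts above are therefore descriptions. Its relative CREB3L2, which drives secretion genes in cartilage, went the other way, with 201 ± 6.0 CPM in TC4-2A, 179.9 ± 3.7 CPM in TL4-2A and 139 ± 1.6 CPM in T-REx cells (log2 0.53 in TC4-2A, adjusted p = 1.35e-16 from edgeR, and 0.37 in TL4-2A cells, adjusted p = 1.63e-12). PPIB, a proline isomerase of the endoplasmic reticulum, rose by 0.22 in TL4-2A cells (edgeR, adjusted p = 4.92e-07), and FKBP10, a chaperone of procollagen, fell by 0.11 on the log2 scale there (adjusted p = 0.0112).

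Of 14 genes for procollagen processing and crosslinking, 13 were tested. Against T-REx cells, TC4-2A cells had 2 higher (15.4%, against 14.2% of all tested genes) and 5 lower (38.5%, against 14.6%), with a median of -0.13. TL4-2A cells had 2 higher (15.4%, against 21.9% of all tested genes) and 4 lower (30.8%, against 22.5%), with a median of -0.15. LOX, the enzyme that crosslinks collagen, averaged 30.1 ± 0.81 CPM in TC4-2A, 33.6 ± 1.6 CPM in TL4-2A and 41.1 ± 1.6 CPM in T-REx cells (SD, n = 3 each), with changes of -0.45 in TC4-2A (adjusted p = 2.95e-09 from edgeR) and -0.29 in TL4-2A cells (adjusted p = 8.88e-06). LOXL1 changed by -0.57 in each induced line (adjusted p = 2.46e-05 for TC4-2A cells and 2.07e-05 for TL4-2A cells, from edgeR). FURIN, a protease that activates other enzymes of this set, changed by -0.13 in TC4-2A (adjusted p = 0.0228) and -0.27 in TL4-2A cells (adjusted p = 1.13e-05), and ADAMTS2, which trims the N-terminal propeptide, by -0.48 in TC4-2A cells (adjusted p = 0.00016).

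Of 18 receptors and breakdown genes, 13 were tested, and each induced line had 1 higher (7.7%) and 5 lower (38.5%) than T-REx cells. The shares of all tested genes were 14.2% higher with 14.6% lower for TC4-2A cells, and 21.9% higher with 22.5% lower for TL4-2A cells. The medians of the list were 0.02 for TC4-2A cells and -0.15 for TL4-2A cells. DDR2, a receptor kinase that binds fibrillar collagens, averaged 2.72 ± 0.26 CPM in TC4-2A, 5.71 ± 0.66 CPM in TL4-2A and 9.18 ± 1.5 CPM in T-REx cells (SD, n = 3 each). It was lower in TC4-2A (-1.76, adjusted p = 8.96e-13 from edgeR) and TL4-2A cells (-0.69, adjusted p = 1.92e-05), and lower in TC4-2A than in TL4-2A cells (-1.07, adjusted p = 5.9e-07). DDR1, its relative in epithelia, changed by -0.31 in TC4-2A (adjusted p = 4.26e-06 from edgeR) and -0.60 in TL4-2A cells (adjusted p = 2.53e-12). The integrin subunits ITGB1 and ITGA2, which form a collagen receptor, were lower in TC4-2A (log2 -0.25 and -0.13, adjusted p = 1.1e-09 and 0.0321) and in TL4-2A cells (-0.28 and -0.26, adjusted p = 3.58e-11 and 4.51e-05, from edgeR).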

How the data were processed

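Directional libraries were made from ribosome-depleted total RNA of the TC4-2A, TL4-2A and T-REx lines. The authors aligned reads with HISAT2 to GRCh38 and deposited a table of raw read counts per gene from featureCounts with Gencode 33 annotation; their versions, and options for strand and multimapping, were not given in the sources used here. Gene counts do not separate circular from linear RNA. Result tables of the authors' DESeq2 comparisons, with fold changes and p-values, were not used. From the counts, 60648 lines were used and 3 damaged lines were left out. Library totals of 16561680 to 21491977 set the precision, and intervals cover counting error only.

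Tests used edgeR 4.0.16 (R 4.3.3) on these counts (filterByExpr, TMM, quasi-likelihood, all 9 libraries, 1 term per line, 2-sided, Benjamini-Hochberg over 19473 genes), checked on simulated data. Symbols, positions and exon lengths came from Gencode 44, which held 99.69% of the identifiers, and start windows from RefSeq (GRCh38.p14). Members and gene lists were chosen with earlier results of these data known. Values per library were given for members called with an absolute log2 difference of at least 0.5 in some comparison and for the collagen IV pairs, and of each gene list the 4 genes with the smallest p were named. Alternatives were DESeq2 1.42.0, RLE scaling, other filters, fits of only the lines compared, a replicate block, and each library left out. Protein sequences were not analysed here.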

Additional observations from a re-analysis of the deposited data

Results flagged for a closer look

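For 4 collagen genes the induced lines were called in opposite directions against T-REx cells, and the direct comparison of TC4-2A with TL4-2A cells passed the test. The log2 difference was -7.70 for COL2A1, -0.84 for COL4A4, -0.74 for COL4A3 and -0.43 for COL5A1. With edgeR the adjusted p of the difference was 1.23e-37 for COL2A1, 3.5e-16 for COL4A4, 4.17e-11 for COL4A3 and 3.06e-09 for COL5A1. For all 4 every TC4-2A library was below every TL4-2A library, with the T-REx libraries between. The TC4-2A calls of COL4A3 and COL5A1 against T-REx cells were lost under alternatives named above, so their opposite calls rest on small falls of -0.25 and -0.15.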

How the results depend on the processing

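Over 1541 comparisons of a collagen gene's value with an alternative, 1484 kept their side of the threshold, 52 lost and 5 gained a call, and 0 reversed. Among the 1484, 19 changed sign where neither value was called, and the others kept their direction. With DESeq2 the count higher in TC4-2A than in T-REx cells was 1 (3 with edgeR), the count lower in TL4-2A than in T-REx cells was 8 (13 with edgeR), and the count higher in TC4-2A than in TL4-2A cells was 2 (4 with edgeR). Leaving out each library in turn gave 1 to 3 genes higher and 16 to 20 lower in TC4-2A than in T-REx cells, 12 to 13 higher and 11 to 13 lower in TL4-2A than in T-REx cells, and 2 to 4 higher and 15 to 17 lower in TC4-2A than in TL4-2A cells. The count of 1 came without T-REx replicate 2 or TC4-2A replicate 3, and the count of 2 without TC4-2A replicate 2. A fit with the replicate block changed no call (3 higher and 19 lower in TC4-2A, 13 and 13 in TL4-2A against T-REx cells). Same-numbered libraries of different lines had correlations of -0.0295 to 0.0302 in their deviations, and differently numbered ones -0.0197 to 0.0336. These correlations run over all tested genes, so they cannot show whether a shared batch acted on a few genes. Levels under 0.53 CPM rest on fewer than 10 counts in a library of median size, and exons shared with genes of the opposite strand could add counts to COL4A3, COL9A3, COL18A1 and COL19A1.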
